A study of Mus musculus with 48 samples.

Results

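Astrocyte genes were described across 4 brain regions of spaceflight and ground control mice. The 9 genes Gfap, Aqp4, Slc1a2, Slc1a3, Glul, Aldoc, Gja1, S100b and Aldh1l1 were taken by name, by a rule that uses no measured value, although earlier results of these data were known, from the 15782 genes of the expression tables, and 9 of the 9 were present in the table of every region. The assay was GeoMx digital spatial profiling (DSP): probes carrying DNA tags were hybridized to a tissue section, and the tags were released by UV light from a chosen area of illumination (AOI), then sequenced and counted. Each of 12 mice gave 1 AOI from each of cornu ammonis 1 of the hippocampus (CA), the dentate gyrus (DG), the frontal cortex (FCT) and a further cortical area labelled cortex (CT), 48 AOIs in all. The labels number the AOIs of a region and group, and AOIs of a group with the same number were read as the same mouse, which the labels do not state.

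All mice were C57BL/6 males, and the labels name no engineered allele. The age given for them is 10 weeks, which for the flight mice is the age at launch, before the 35 days of flight. The 4 groups of 3 mice were FLT-SAL (35 days on the space station, saline), FLT-BuOE (the same flight, MnTnBuOE-2-PyP5+), GC-SAL and GC-BuOE (35 days on the ground in flight hardware cages, with saline or BuOE). BuOE, a manganese porphyrin that mimics superoxide dismutase, was injected subcutaneously at 1 mg/kg in 0.2 mL, from 7 days before launch and weekly thereafter. The flight mice were received within 20 h after splashdown, and the ground mice followed the same protocol 3 days later. Each group was mounted on its own slide, so that slide and group cannot be told apart. Staining for the proteins GFAP and Iba1 guided the choice of areas, so Gfap was given no test between regions. An AOI pools all cells within it, so fewer astrocytes and less RNA per astrocyte cannot be told apart.

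Astrocytes surround synapses and blood vessels, take up the glutamate that neurons release, convert it to glutamine for return to neurons, and couple to each other through gap junctions. Slc1a2 (GLT-1) and Slc1a3 (GLAST) encode the glutamate transporters of this cycle, and Glul encodes glutamine synthetase, its next step. Aldoc is the aldolase of glycolysis typical of brain astrocytes and Aldh1l1 a folate enzyme widely used as a pan-astrocyte marker. Gfap is the intermediate filament that accumulates in reactive astrocytes, S100b a calcium-binding protein, Gja1 the gap junction protein connexin 43, and Aqp4 the water channel of the end-feet on vessels.

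The deposited Q3-normalized count divides each AOI by its upper quartile, and all AOIs share 1 scale. Total probe counts ran from 322629 to 1579380 per AOI with a median of 652040, and the median was higher in FLT-SAL (991426) than in GC-SAL (628307.5), GC-BuOE (639735) or FLT-BuOE (548888). Over all regions the AOIs of FLT-SAL also held more nuclei, with a median of 579.5 against 452 in GC-SAL, but in CA the medians were 305 and 302. The area of the AOIs differed by group as well. In FCT it was 198761 square micrometres in every FLT-SAL AOI and 146259 in every GC-SAL AOI. In CT it was 224546 in FLT-SAL, 144580 in FLT-BuOE and 146259 to 244534 in GC-SAL. The part of area in the group differences was not tested. The negative-control level differed by region, the medians being 18.9 (CA), 11.2 (DG), 13.9 (FCT) and 14.5 (CT). All 9 genes had a median above it in every region. For Slc1a2, Glul and Aldoc the median ratio to the negative control was between 5.06 and 20.83 over the 4 regions, while for the other 6 genes it was between 1.46 and 4.36. Aqp4 was the member nearest to background, with a median of 25 raw counts per AOI and a lowest of 7.

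Slc1a2, Glul and Aldoc were lower in both hippocampal regions than in cortex, whereas Gfap was higher there, and the sequences upstream of these 4 genes are shown for that contrast. RefSeq (GRCm38.p6) gave an upstream sequence for 8 of the 9 genes, 9 sequences in all because Aldoc has a pair of listed starts. Each run below is the 250 bases before the listed transcript start, on the strand of the gene, and capitals mark motif letters found on either strand. These starts are the listed ones, and which start the astrocytes of these regions use is not known. The Slc1a2 and Gfap windows and the second Aldoc window lie inside the GENCODE gene spans, and the first Aldoc window reaches into its span, so these runs need not be promoters. The positions are chr1:153899679-153899928 (Glul, plus strand), chr2:102706188-102706437 (Slc1a2, plus strand), chr11:78322823-78323072 and chr11:78323948-78324197 (Aldoc, plus strand) and chr11:102897201-102897450 (Gfap, minus strand).
Glul: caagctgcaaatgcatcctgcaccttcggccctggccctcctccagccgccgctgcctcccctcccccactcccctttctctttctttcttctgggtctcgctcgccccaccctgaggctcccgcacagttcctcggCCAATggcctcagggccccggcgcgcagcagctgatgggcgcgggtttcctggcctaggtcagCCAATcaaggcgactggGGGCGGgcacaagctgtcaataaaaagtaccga
Slc1a2: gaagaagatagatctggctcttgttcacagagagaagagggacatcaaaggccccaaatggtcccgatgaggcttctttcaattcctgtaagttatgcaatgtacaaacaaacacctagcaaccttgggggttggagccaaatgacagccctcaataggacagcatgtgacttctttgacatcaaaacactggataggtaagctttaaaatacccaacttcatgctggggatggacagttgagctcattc
Aldoc, first start: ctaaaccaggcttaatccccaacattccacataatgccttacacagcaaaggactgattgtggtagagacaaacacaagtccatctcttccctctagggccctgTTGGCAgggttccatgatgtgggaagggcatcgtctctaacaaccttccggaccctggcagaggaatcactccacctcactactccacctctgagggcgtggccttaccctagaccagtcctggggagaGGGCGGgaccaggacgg
Aldoc, next start: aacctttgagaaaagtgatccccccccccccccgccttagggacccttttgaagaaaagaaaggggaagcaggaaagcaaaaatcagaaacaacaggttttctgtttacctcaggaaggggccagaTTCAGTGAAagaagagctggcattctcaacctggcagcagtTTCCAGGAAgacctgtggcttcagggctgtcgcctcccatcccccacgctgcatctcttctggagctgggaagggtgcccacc
Gfap: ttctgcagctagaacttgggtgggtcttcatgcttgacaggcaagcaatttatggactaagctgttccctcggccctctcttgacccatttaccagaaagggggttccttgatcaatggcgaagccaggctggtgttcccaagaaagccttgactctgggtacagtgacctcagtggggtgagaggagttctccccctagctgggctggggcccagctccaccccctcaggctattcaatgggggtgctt

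Of 32851 RefSeq upstream windows of the same length, searched on both strands, 12.4% held the TATA box letters TATAAA and 33.8% the CCAAT box. The GC box letters GGGCGG occurred in 32.7%, the STAT motif TTCNNNGAA in 7.02% and the nuclear factor I motif TTGGCA in 12.3%. A match is a description of the letters and not a site. CCAAT and TTGGCA can overlap, as they do upstream of S100b. The Glul window held CCAAT starting at positions -113 and -50 and GGGCGG at -33, counted back from the base before the start, and its 64.8% G+C and 15 CpG dinucleotides compare with medians of 52.4% and 6 over all windows. The first Aldoc window held TTGGCA at -146 and GGGCGG at -17, and the next held TTCNNNGAA at -124 and -83. None of the 5 motifs lay in the Gja1 window or in the Slc1a2 and Gfap windows, which lie within the genes. The Slc1a2 window, inside the gene, had 44.8% G+C and 1 CpG.

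The 4 regions of a mouse were compared in 1 limma fit over 48 AOIs with the mouse as a random block, averaged over the 4 groups. A difference was called at an adjusted p below 0.05 (Benjamini-Hochberg over all genes) and a fold beyond 1.5, and all folds are on the scale of log2(Q3-normalized count + 1). Of 48 combinations of 8 genes (without Gfap) and 6 pairs of regions, 9 were called, where over all genes 3.63% of combinations were called. With no fold threshold 22 of the 48 had an adjusted p below 0.05, against 16.9% over all genes. All 9 called differences were lower in a hippocampal than in a cortical region. They belonged to Slc1a2, Glul, Aldoc and S100b.

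**Figure D1:**
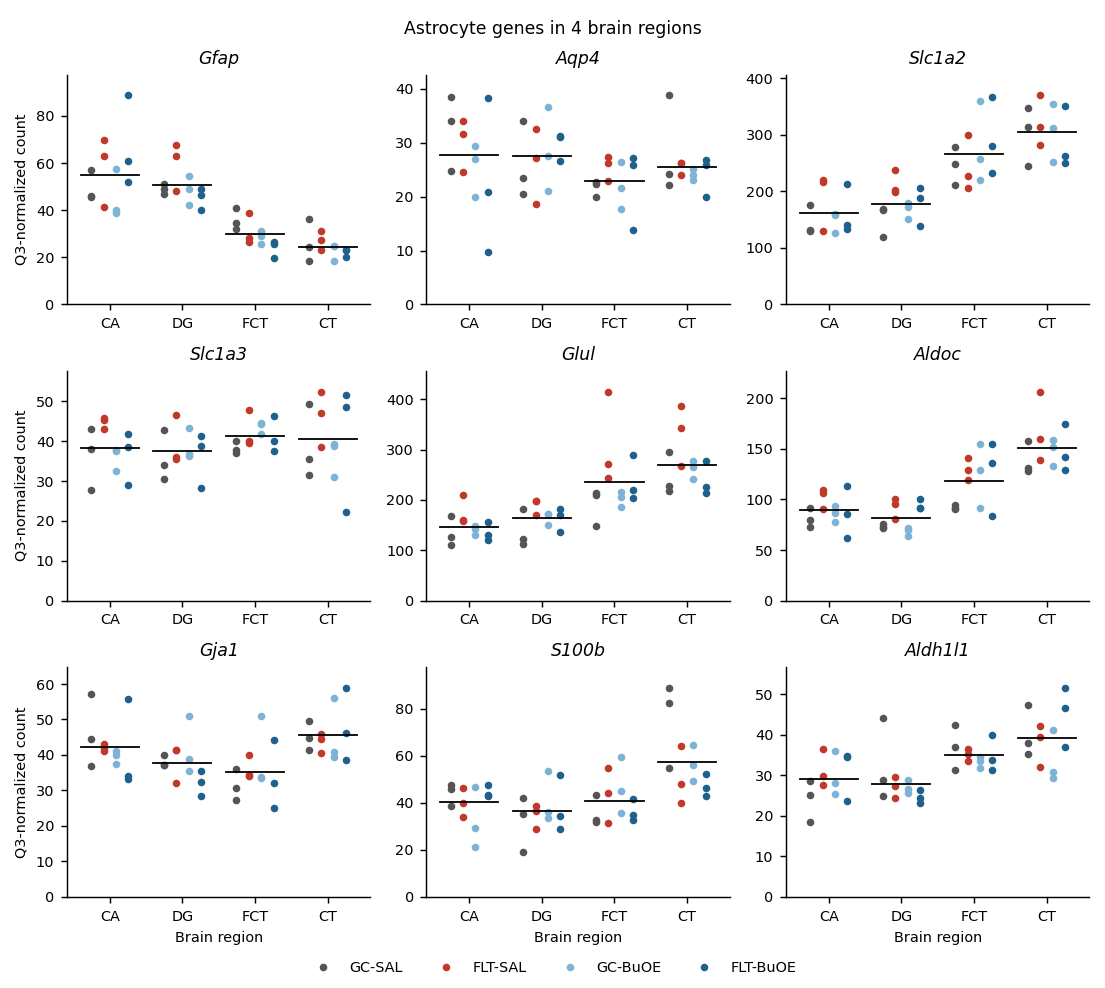
Q3-normalized count (vertical axis, linear from 0) of the 9 genes in CA, DG, FCT and CT (horizontal axis), with 1 point per mouse coloured by group and a bar at the mean of the 12 mice. Slc1a2, Glul and Aldoc step up from hippocampus to cortex, Gfap steps down, and the medians of Slc1a3 and Aqp4 lie close together before any subtraction of the negative-control level.

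Slc1a2, the main glutamate transporter of forebrain astrocytes, had a Q3-normalized count of 126.4 to 219.4 (median 149.4) in the 12 CA AOIs and 119.1 to 238.1 (median 176.2) in DG. In cortex it was 205.3 to 367.3 (median 252.2) in FCT and 244.8 to 369.4 (median 312.5) in CT. The hippocampal regions lay below CT in 12 of 12 mice with no overlap of the AOIs, as for 1.98% of all genes in CA against CT and 3.35% in DG against CT in either direction. The log2 difference was -0.93 ± 0.08 (SE) for CA against CT (adjusted p = 5.82e-17, limma) and -0.78 ± 0.08 for DG against CT (1.86e-13), or 1.91-fold and 1.72-fold lower. Against FCT, Slc1a2 was -0.73 ± 0.08 in CA (8.49e-12) and -0.57 ± 0.08 in DG (2.12e-08), the latter just under the fold threshold. CA and DG differed by -0.15 ± 0.08 and FCT and CT by -0.21 ± 0.08, neither past the test (adjusted p = 0.196 and 0.400).

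Glul, the enzyme that turns glutamate into glutamine, followed the same order. Its median was 146.0 for CA (110.8 to 210.9) and 170.7 for DG (112.1 to 198.6), against 214.6 for FCT (148.5 to 415.2) and 267.4 for CT (214.3 to 385.9). All CA and DG values were below all CT values. The log2 difference was -0.87 ± 0.08 for CA against CT (adjusted p = 7.42e-17, limma), -0.72 ± 0.08 for DG against CT (4.81e-13) and -0.65 ± 0.08 for CA against FCT (5.46e-11). DG against FCT was -0.50 ± 0.08 (2.36e-07), in the same direction in 12 of 12 mice but under the fold threshold. Neighbours in the order, CA and DG or FCT and CT, had adjusted p-values of 0.156 and 0.260.

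Aldoc, the glycolytic aldolase, had medians of 88.5 for CA (62.3 to 113.1) and 78.4 for DG (63.4 to 100.3), against 124.2 for FCT (83.8 to 154.8) and 147.1 for CT (127.5 to 206.3). The CT values lay above every CA and DG value, while the FCT values overlapped with all other regions. Aldoc was lower than in CT by -0.76 ± 0.08 in CA (adjusted p = 4.67e-13, limma) and -0.87 ± 0.08 in DG (4.31e-16). FCT was below CT in 12 of 12 mice (-0.37 ± 0.08, adjusted p = 0.00512 in limma), a 1.29-fold difference and so not called.

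S100b and Aldh1l1 had their highest median in CT. S100b, a calcium-binding protein, had medians of 43.1 for CA (21.1 to 47.4), 35.8 for DG (19.3 to 53.4), 38.6 for FCT (31.4 to 59.5) and 53.6 for CT (40 to 88.9). The called S100b difference was DG against CT (-0.64 ± 0.11, adjusted p = 1.18e-06, limma), with DG lower in 10 of 12 mice and the regions overlapping. This call was lost without mouse 2 of FLT-BuOE (-0.58) and without mouse 1 of GC-SAL (-0.54), whose CT area held 140 nuclei, the lowest number of the 48 AOIs. In an alternative fit the negative-control level was subtracted and results below 1 were set to 1, with no pseudocount. Log2 differences of values near that level then become large. In that fit S100b was also called in CA against CT (-1.17, adjusted p = 5.38e-05, limma). Aldh1l1 had medians of 28.4 (CA), 26.5 (DG), 34.2 (FCT) and 38.8 (CT). It was lower in CA and DG than in CT by -0.43 ± 0.10 and -0.48 ± 0.10 (adjusted p = 8.87e-04 and 1.12e-04, limma), under the fold threshold. After the subtraction it was -1.46 in CA against CT and -1.28 in CA against FCT (adjusted p = 6.13e-06 and 6.89e-05, limma). In CA its value in GC-SAL mouse 1 was 0.95 times the negative control, so these sizes rest partly on values near background.

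Gja1, Slc1a3 and Aqp4 did not follow the hippocampus to cortex step before any subtraction of the negative-control level. Gja1, the gap junction protein, had medians of 41.2, 37.2, 33.9 and 44.6 in CA, DG, FCT and CT, and was lower than in CT in FCT (-0.38 ± 0.10, adjusted p = 0.0404, limma) and in DG (-0.27 ± 0.10, 0.0405), both under the fold threshold. Slc1a3, the second transporter, lay between 36.5 and 40 in median, and its log2 differences between regions ran from -0.15 to 0.07, each with an SE of 0.10 and none past the test. Between CA and CT the fold was 1.91 for Slc1a2 and 1.04 for Slc1a3. These folds still hold the background, which was higher in CA. The median ratio to the negative control was 2.15 in CA and 2.83 in CT for Slc1a3, against 7.93 and 20.83 for Slc1a2. For Gja1 it was 2.1 and 2.88. Aqp4, the end-foot water channel, had medians from 22.8 to 28.3, and its differences of -0.16 to 0.26 had an SE of 0.13 and did not pass the test. After subtraction of the negative-control level, Aqp4 in CA against DG was -1.15 (adjusted p = 0.0116, limma) in place of -0.04. In CA its value in FLT-BuOE mouse 1 was 0.6 times the negative control and so was set to 1 in that fit.

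Gfap is given as a description, since staining for its protein took part in the choice of areas. Its Q3-normalized count was 38.9 to 88.7 (median 54.4) in CA, 40 to 67.6 (median 48.8) in DG, 19.6 to 41.1 (median 28.8) in FCT and 18.3 to 36.4 (median 23.7) in CT. Both hippocampal regions were above both cortical regions in 12 of 12 mice, by a log2 difference of 1.12 for CA and 1.02 for DG against CT, and of 0.85 and 0.75 against FCT. In these 4 pairs of regions Slc1a2 and Glul were lower in hippocampus in 12 of 12 mice.

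**Figure D2:**
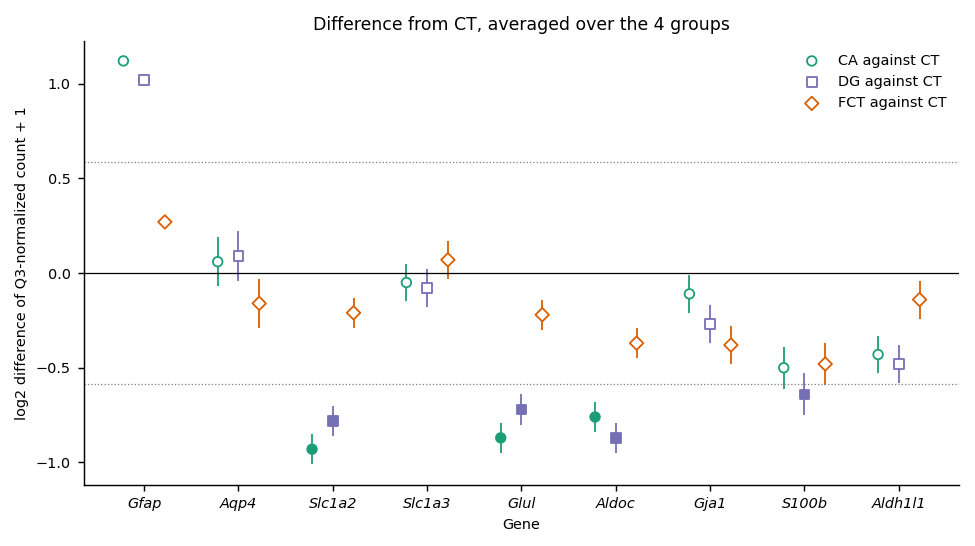
Log2 difference from CT (vertical axis, Q3-normalized count + 1, bars are SE from limma) for the 9 genes in CA, DG and FCT, with filled symbols for called differences and dotted lines at a 1.5-fold difference. Gfap, shown without error bars because it was not tested, is above 0 and Slc1a2, Glul and Aldoc are below it.

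Markers of other cells moved with the regional step, and their part in it was not tested. The summed level of 8 neuronal genes had medians of 775.0 (CA), 924.9 (DG), 1376.9 (FCT) and 1666.2 (CT), and 5 of the 8 (Snap25, Stmn2, Syt1, Nefl and Gad1) were called lower in CA than in CT, where 3.98% of all genes were called. The summed level of 7 oligodendrocyte genes had medians of 495.9, 484.9, 996.8 and 797.3 in the same order. The 9 astrocyte genes summed to medians of 622.2, 639.3, 800.2 and 942.8, while 7 microglial genes stayed between 195.0 and 223.7. The negative-control level, highest in CA, also moved with region. After its subtraction from each AOI 15 of the 48 combinations were called, all lower in the first region of the pair. That fit enlarges log2 differences of values near background.

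Among 41 measured genes of a wider astrocyte list (44 listed), few shared the regional step at the size seen for Slc1a2, Glul and Aldoc. In CA against CT, 1 was called higher and 3 lower, and the median log2 difference was -0.18 beside 0.066 for all genes. In CA against FCT, where 3.28% of all genes were called, 1 was higher (Bcan) and 2 were lower (Sparcl1 and Grm3). In DG against CT, 1 was called higher and 5 lower, with a median of -0.24 beside -0.002, and 5.79% of all genes were called. Sparcl1, which encodes a secreted matrix protein of astrocytes, was lower in CA than in CT by -1.61 ± 0.08. Grm3, a glutamate receptor of the mGluR family found on astrocytes, was lower in CA and DG than in CT (-0.85 ± 0.11 and -0.80 ± 0.11). In the opposite direction, Slc4a4, a sodium bicarbonate cotransporter, was higher in DG than in CT (1.18 ± 0.09) and Bcan, a matrix proteoglycan, was higher in CA than in CT (0.71 ± 0.10). Scg3 (-0.61 ± 0.09) and Ndrg2 (-0.59 ± 0.09) were also called in DG against CT. The highest adjusted p among the genes named here was 1.17e-08 (Ndrg2, limma).

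Genes of the pathways around the members were counted from lists chosen by function. Over all genes 3.98% were called in CA against CT and 5.79% in DG against CT. Of 11 measured glutamate cycle genes, 2 were lower in CA than in CT, Grm3 and Got1 (-0.68 ± 0.10), Got1 being the cytosolic aspartate transaminase. Of 20 glycolysis and lactate genes, 11 were called lower in CA than in CT and 7 in DG than in CT, with none called higher. The 10 with the largest fold in CA against CT were Eno1 (-1.13 ± 0.08), Ldhb (-0.99 ± 0.08), Aldoa (-0.84 ± 0.08), the ubiquitous aldolase, and Tpi1, Pgam1, Pfkp, Pkm, Pgk1, Pfkm and Gapdh. Of 12 end-foot and syncytium genes, 2 were lower in CA than in DG (Slc4a4, -1.28 ± 0.09, and Dtna, -1.03 ± 0.09), where 4.1% of all genes were called. Dtna encodes dystrobrevin alpha, part of the complex that anchors the water channel at end-feet.

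The effect of spaceflight without drug was asked by comparing FLT-SAL with GC-SAL within each region, in limma fits of the 12 AOIs of that region. None of the 36 combinations of gene and region was called, where 0.136% of all genes were called over the 4 regions. The count was 0 by edgeR and DESeq2 on the raw counts as well. At an unadjusted p below 0.05 there were 9 of 36, against 6.27% of all genes, and these were Glul in 4 regions, Slc1a2 in CA and DG, Aldoc in DG and FCT, all higher in flight, and S100b in CT, lower in flight. The 4 regions came from the same mice, so these 36 are not independent. Groups of 3 against 3 did not overlap in 6 of 36, all higher in flight, beside 12.6% of all genes in either direction and 6.87% higher. An exact two-sided permutation test of 3 against 3 cannot go below 0.1.

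Glul had the largest difference of the 36. In FCT its Q3-normalized count was 148.5, 213.5 and 210.7 in the GC-SAL mice and 272.2, 415.2 and 243.7 in the FLT-SAL mice. Every flight mouse was above every ground mouse, and FLT-SAL mouse 2 was far above the rest. The log2 fold change was 0.68 ± 0.17 (SE), 1.60-fold, with an adjusted p of 0.132 in limma. In DG the values were 122.8, 182.4 and 112.1 against 169.7, 198.6 and 198.0, with GC-SAL mouse 2 inside the flight range (0.47 ± 0.14, adjusted p = 0.212). In CA they were 110.8, 167.7 and 126.0 against 160.1, 159.1 and 210.9 (0.40 ± 0.16, adjusted p = 0.562) and in CT 228.0, 295.4 and 218.7 against 268.5, 342.2 and 385.9 (0.42 ± 0.16, 0.824). The groups overlapped in both regions. Without GC-SAL mouse 2 the DG difference was 0.68 (adjusted p = 0.0149), and without FLT-SAL mouse 3 the FCT difference was 0.83 (0.0340), so that 1 mouse decided whether Glul was called.

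**Figure D3:**
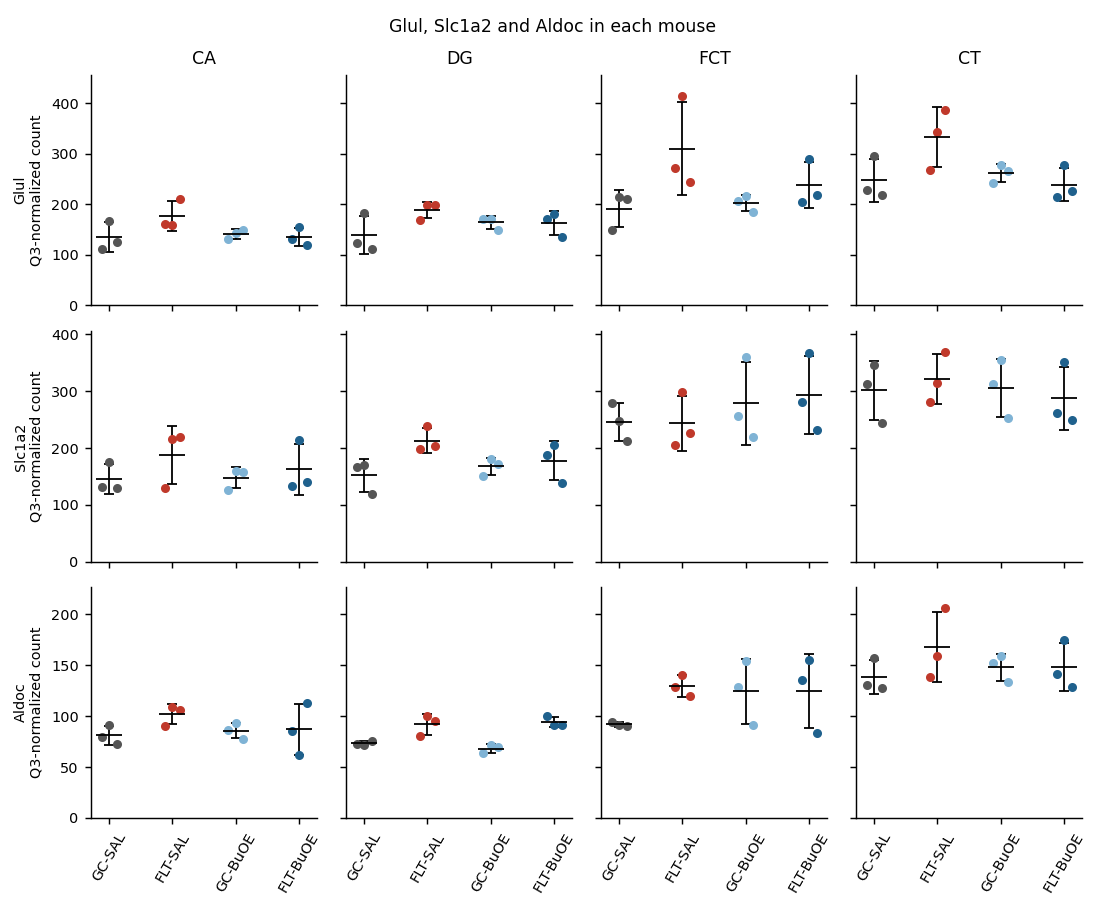
Q3-normalized count (vertical axis, linear from 0) of Glul, Slc1a2 and Aldoc in each mouse by group (horizontal axis) and region, with 1 point per mouse and the mean ± SD of 3 mice in black. Glul in FLT-SAL has the highest group mean in all 4 regions, and most groups overlap.

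Slc1a2 had its larger flight differences in the hippocampal regions, neither of them called. In DG it was 167.0, 169.4 and 119.1 in GC-SAL and 197.9, 238.1 and 203.0 in FLT-SAL, without overlap (0.50 ± 0.14, 1.41-fold, adjusted p = 0.122 in limma). In CA it was 130.8, 175.3 and 129.0 against 129.5, 215.5 and 219.4, with FLT-SAL mouse 1 at the level of the ground mice (0.35 ± 0.17, adjusted p = 0.723). In cortex the difference was -0.03 ± 0.17 in FCT and 0.10 ± 0.17 in CT. The flight difference in DG minus that in FCT was 0.52 ± 0.24 with an adjusted p of 0.997, so a difference between regions was not shown.

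Aldoc was 94.8, 91.0 and 90.6 in GC-SAL and 129.2, 140.8 and 119.6 in FLT-SAL in FCT, with no overlap and a narrow ground group (0.49 ± 0.18, adjusted p = 0.630 in limma). In DG it was 73.1, 71.7 and 76.0 against 80.8, 100.3 and 95.1, also without overlap (0.31 ± 0.15, adjusted p = 0.647). In CA and CT the differences were 0.32 ± 0.18 and 0.26 ± 0.16 and the mice overlapped. S100b in CT went the other way, with 82.5, 88.9 and 54.9 in GC-SAL and 48, 40 and 64.1 in FLT-SAL (-0.56 ± 0.18, adjusted p = 0.520 in limma), FLT-SAL mouse 3 being inside the ground range. The value of 82.5 is from GC-SAL mouse 1, whose CT area held 140 nuclei, the lowest number of all AOIs. In the other regions S100b differed by -0.13 to 0.25.

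Gfap, the reactive astrocyte filament, showed no common direction, with log2 fold changes of 0.20 ± 0.21 (CA), 0.26 ± 0.18 (DG), -0.21 ± 0.21 (FCT) and 0.09 ± 0.23 (CT). Its DG values were 46.9, 51.2 and 49.0 in GC-SAL and 48.2, 67.6 and 62.9 in FLT-SAL, so that 2 flight mice were above the ground mice and 1 was among them. Slc1a3 differed by 0.14 to 0.32, and in CA its FLT-SAL values of 45.9, 45.2 and 43.1 were above the GC-SAL values of 27.7, 38.1 and 43.0 by a margin that was small for mouse 3 of each group. Aqp4 (-0.11 to 0.22), Gja1 (-0.11 to 0.20) and Aldh1l1 (-0.22 to 0.38) had no test past an unadjusted p of 0.05. The medians over the 9 genes were 0.32 (CA), 0.16 (DG), 0.20 (FCT) and 0.09 (CT), beside 0.022, -0.007, 0.031 and 0.006 for all genes.

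**Figure D4:**
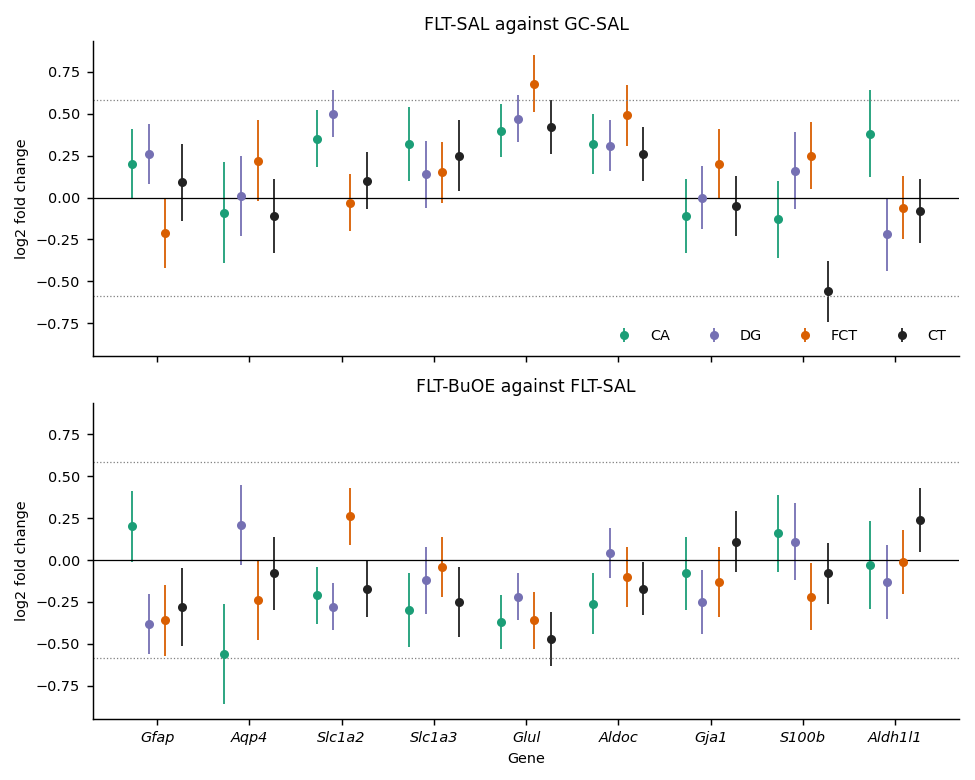
Log2 fold change (vertical axis, bars are SE from limma) of the 9 genes in CA, DG, FCT and CT for FLT-SAL against GC-SAL (top) and FLT-BuOE against FLT-SAL (bottom), with dotted lines at 1.5-fold. Glul is above 0 in 4 regions at the top and below 0 in 4 regions at the bottom, and no difference was called. The panels share the FLT-SAL mice.

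Markers of other cells and the depth of the AOIs moved with the flight group, and their part in these values was not tested. In CT the summed level of 7 oligodendrocyte genes was 698.6 to 769.3 in GC-SAL and 1269.1 to 1786.0 in FLT-SAL, and Mobp, Cldn11 and Cnp were among the genes called, where 0.0887% of all genes were called. In FCT it was 986.5 to 1164.6 against 1198.0 to 1889.7, and in DG 481.3 to 524.0 against 438.0 to 499.5. The 8 neuronal genes summed to 672.7 to 775.7 in GC-SAL and 918.2 to 959.4 in FLT-SAL in CA, and were also higher, without overlap, in DG and FCT. The microglial sum overlapped between these groups in FCT, CT and CA, and in DG was 196.0 to 224.3 against 191.2 to 195.1. The negative-control level in FCT was 12.8 to 15.9 in GC-SAL and 15.2 to 18.0 in FLT-SAL.

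BuOE in flight was examined as FLT-BuOE against FLT-SAL, which uses the same FLT-SAL mice as the flight comparison, so that a sample that is high there is high in both. None of the 36 combinations was called by limma, edgeR or DESeq2, with 0.0269% of all genes called, and 4 had an unadjusted p below 0.05 beside 6.14% of all genes. Glul accounted for 3 of these and Gfap in DG for the other. Glul in CT was 214.3, 276.8 and 226.3 under BuOE against 268.5, 342.2 and 385.9 with saline, a lower range that overlapped at FLT-SAL mouse 1 (-0.47 ± 0.16, adjusted p = 0.547). In CA it was 131.1, 155.6 and 120.1 against 160.1, 159.1 and 210.9, without overlap (-0.37 ± 0.16, 0.969), and in FCT it was 204.4, 289.1 and 218.9 against 272.2, 415.2 and 243.7 (-0.36 ± 0.17, 0.607). Gfap in DG was 40, 46.3 and 48.9 against 48.2, 67.6 and 62.9 (-0.38 ± 0.18, 0.786), overlapping at 1 mouse of each group. Groups did not overlap in 3 of 36, all lower under BuOE, beside 11.7% of all genes. Of the 36 differences 28 were below 0, with a median of -0.15, and the median of all genes was between -0.069 and -0.016 in the 4 regions.

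On the ground, GC-BuOE against GC-SAL gave no call among the 36 by limma, edgeR or DESeq2, with 0.00158% of all genes called. There were 3 with an unadjusted p below 0.05 beside 5.05% of all genes, Aldoc in FCT (0.40 ± 0.18) and S100b in CA (-0.50 ± 0.23) and CT (-0.39 ± 0.18). The CT value includes GC-SAL mouse 1, whose area held 140 nuclei. Glul, which had the largest flight difference, differed by 0.08 to 0.27 with BuOE on the ground. Aldoc in FCT was 128.7, 154.2 and 91.0 under BuOE against 94.8, 91.0 and 90.6, with GC-BuOE mouse 3 at the ground saline level.

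Under BuOE, FLT-BuOE against GC-BuOE again gave 0 of 36 calls by limma, edgeR and DESeq2, with 0.0459% of all genes called, and 4 at an unadjusted p below 0.05 beside 7.39%. Aldoc in DG had the lowest adjusted p (0.25, limma). It was 63.4, 71.3 and 70.0 in GC-BuOE and 100.1, 91.3 and 91.2 in FLT-BuOE, with no overlap (0.46 ± 0.15, 1.38-fold). The others were Gfap in CA (0.54 ± 0.21, raised by FLT-BuOE mouse 3 at 88.7), S100b in CA (0.52 ± 0.23) and Aldh1l1 in CT (0.41 ± 0.19). Glul differed by -0.14 to 0.21 in this comparison.

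Whether the flight difference itself changed with BuOE was tested as an interaction in the same limma fits, with no fold threshold. None of 36 was called, with 0.00792% called over all genes, and 5 had an unadjusted p below 0.05 beside 5.51%. For Glul the interaction was -0.46 ± 0.22 (CA), -0.49 ± 0.20 (DG), -0.46 ± 0.24 (FCT) and -0.56 ± 0.23 (CT), with adjusted p-values from 0.698 to 0.986. The 5 were Glul in CA, DG and CT, Slc1a2 in DG (-0.43 ± 0.20) and S100b in CA (0.65 ± 0.32). Glul in FCT was not among them (unadjusted p = 0.0548, limma). Whether the flight difference varied between regions was tested for 9 genes and 6 pairs of regions, and 0 of 54 were called beside 0.00739% over all genes, with 4 at an unadjusted p below 0.05 beside 4.45%. The largest was S100b in FCT minus CT (0.81 ± 0.31, adjusted p = 1.00). It includes the CT area of GC-SAL mouse 1, which held 140 nuclei.

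The spread within a group, which holds both counting error and differences between mice, limited how small a difference could be seen. The median coefficient of variation within a group and region was 10.3% for Aldoc, 15.7% for Glul and 18.4% for Slc1a2, where counting alone gives a median of 9.86%, 7.38% and 6.70% per AOI. For Gfap, Slc1a3, Gja1, Aldh1l1 and Aqp4 it was 14% to 19.45%, and counting alone gives 16% to 20%, about the size of the spread itself. Counting alone was about the size of the spread for Aldoc too. For S100b the spread was 20.8%, above the 16% from counting alone. Glul and Slc1a2 varied furthest beyond counting.

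Pairs of members were compared for shared variation. After centring on the mean of region and group, Pearson correlations between pairs of members over the 48 AOIs ran from -0.32 to 0.62 with a median of 0.07, and 23 of 36 were above 0. The AOIs of a mouse and of a slide are not independent, and these values are descriptions. The highest were Slc1a2 with Glul (0.62), Slc1a2 with Aldoc (0.46), Aldoc with Gja1 (0.46), Glul with S100b (0.43) and Aqp4 with Gja1 (0.40). The lowest was Aqp4 with Glul (-0.32). For the members other than Slc1a2, Glul and S100b, counting error is about the size of the spread, so a correlation near 0 says little. For S100b it is a large part of the spread. Gfap correlated with none of the other 8 beyond 0.18 in either direction.

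**Figure D5:**
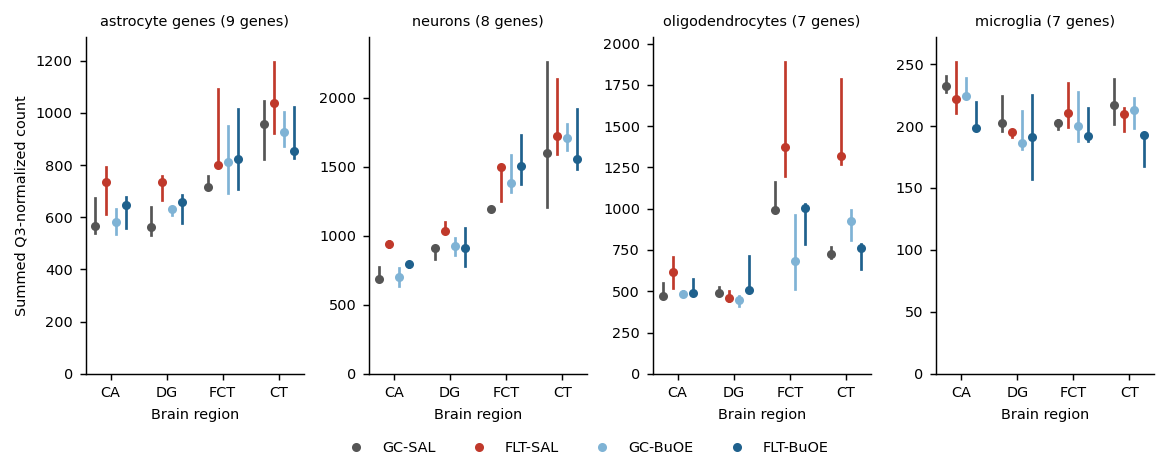
Summed Q3-normalized count (vertical axes, linear from 0, different scales) of the 9 astrocyte genes and of neuronal, oligodendrocyte and microglial genes in CA, DG, FCT and CT, with the median of 3 mice as a point and their range as a line for each group. Astrocyte and neuronal sums step up towards CT, oligodendrocyte sums in CT are highest in FLT-SAL, and microglial sums stay between 157.6 and 251.9.

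The wider astrocyte list gave 4 calls of 164 combinations in FLT-SAL against GC-SAL, all higher in flight, beside 0.136% of all genes called, and none in the other comparisons of groups. The 4 calls became 0 by limma without trend and 2 with total-count scaling. Mt1, a metallothionein that binds zinc and copper, accounted for 3 of them, in CA (0.67 ± 0.16, adjusted p = 0.0452, limma), DG (0.81 ± 0.14, 0.00114) and FCT (0.87 ± 0.16, 0.0110). Bcan in CA was the other (0.83 ± 0.19, 0.0395). Without 1 mouse at a time, the number of calls ran from 1 to 5, falling to 1 when mouse 2 or mouse 3 of FLT-SAL, or mouse 1 or mouse 3 of GC-SAL, was left out, and to 2 on leaving out FLT-SAL mouse 1 or FLT-BuOE mouse 2. Of the 164, 122 were above 0 and 34 had an unadjusted p below 0.05, beside 6.27% of all genes. The medians were 0.10, 0.23, 0.24 and 0.15 in CA, DG, FCT and CT, beside 0.022, -0.007, 0.031 and 0.006 for all genes. No glutamate cycle, end-foot, glycolysis or reactive astrocyte gene was called between groups in these fits, the number with an unadjusted p below 0.05 in the flight comparison being 5 of 44, 3 of 48, 24 of 80 and 4 of 68, beside 6.27% of all genes.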

How the data were processed

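The authors counted probe tags with the GeoMx NGS Pipeline (version 2.3.4 per the file headers) and deposited the raw count of 20175 probes in each AOI. They divided each AOI by its upper quartile (Q3 normalization in the vendor's software) and deposited this Q3-normalized signal for 15782 genes, 1 table per region. Deposited tables of their own group comparisons hold log2 fold changes and p-values and were not used. Each Q3-normalized value was divided by the value of 1 count fitted for its AOI. Of the results, 99.97% were whole counts within 0.02, and 15777 genes, all 9 members included, matched 1 probe.

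Members and gene lists were chosen with earlier results of these data known. Tests used limma 3.58.1 with a mean-variance trend on log2(Q3-normalized count + 1): 12 AOIs per region (8 residual degrees of freedom), or 48 AOIs with the mouse as random block (correlation 0.0255). Genes were called at a Benjamini-Hochberg adjusted p below 0.05 over all genes and an absolute log2 fold change above 0.585, with no fold threshold for interactions. The same replicate number in the 4 regions of a group was read as 1 mouse, which the labels do not state and which was inferred from the numbers in the labels and the study's design of 3 mice per group with 4 regions each, and the mouse block and counts of mice rest on that reading. Alternatives were pseudocounts of 0.5 and 5, a filter at 1.5 times the negative control, and other scalings. Negative-control subtraction was another, with results below 1 set to 1 and no pseudocount. Further alternatives were edgeR 4.0.16 and DESeq2 1.42.0 on counts, fits of only the groups compared, a replicate block, and leaving out each of 12 mice. The scripts were tested on simulated data. Of genes drawn at random and given a log2 change of 1 in FLT-SAL, limma called 53% (CA), 68% (DG), 76% (FCT) and 79% (CT). Smaller changes were not simulated, so a count of 0 calls does not exclude them. Named genes were all members, every listed gene called in a contrast (at most 10 per list and contrast, not all printed), and the genes most correlated with the members. RefSeq upstream sequences (GRCm38.p6) were matched by symbol. Some listed genes are not reported here.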

Additional observations from a re-analysis of the deposited data

How the results depend on the processing

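Correlations of same-numbered samples of different groups ran from -0.179 to 0.125 (median 0.0206), and 1 of 72 was over 0.1. For AOIs read as the same mouse in different regions they ran from -0.0202 to 0.2199 (median 0.0236), with 2 of 72 over 0.1. The ranges are alike, so these correlations cannot tell whether the numbers pair mice of different groups. They give no check of the same-mouse reading either. With the replicate number as a block, 1 member was called in FLT-SAL against GC-SAL (Glul in FCT, 0.68, adjusted p = 0.0259, limma), and no other count of members between groups changed. Without 1 mouse at a time that count was 0 to 1, and under all other alternatives it was 0. Counts for the other group comparisons, the interaction and the flight difference by region were 0 under every alternative that was run. Between regions the count was 8 to 10 without 1 mouse at a time and 15 after subtraction of the negative-control value, where Aldh1l1 in CA against DG turned from 0.05 to -0.91 (adjusted p = 0.00264). The wider list gave 2 calls with total-count scaling, 0 by limma without trend, and from 1 to 5 without 1 mouse at a time. The causes of these changes were not tested. Leaving out FLT-SAL mouse 2 put Glul in CA against FCT at -0.58, under the fold threshold, and 4 single-mouse omissions put Slc1a2 in DG against FCT past it, at -0.59 to -0.62. The 6 members other than Slc1a2, Glul and Aldoc had median raw counts of 25 to 39 per AOI.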

Other observations

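Genes that followed the 9 members most closely over the 48 AOIs, after centring on the region, were Ckb (Pearson correlation with the mean of the 9 members 0.66), Apoe (0.65), Cst3 (0.64), Calm3, Ip6k1 and Nsf (each 0.63), Bex2 and Itm2b (each 0.62), Clu (0.61) and Sparcl1 (0.60), among 7336 genes at or above 2 times the negative control. Apoe, Cst3, Clu and Sparcl1 are on the wider astrocyte list, while Nsf and Calm3 encode proteins of vesicle fusion and calcium signalling that neurons express strongly. For single members the closest were Eef2 (0.78), Sparcl1 (0.75) and Sod1 (0.73) for Slc1a2, Mt1, Map1a and Gapdh (each 0.71) for Glul, and Ldhb (0.66), Fam107a (0.64) and Atp5j (0.64) for Aldoc. For Gfap, Aqp4, Slc1a3, Gja1, S100b and Aldh1l1 the closest gene reached 0.51 to 0.62. These values are descriptions over AOIs that share mice and slides.

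Of 17 measured genes of a reactive astrocyte list, 1 was called between regions, Serpina3n, a protease inhibitor, higher in CA than in FCT (0.76 ± 0.12, adjusted p = 1.75e-07, limma, where 3.28% of all genes were called). The summed level of these 17 genes had a median of 455.5 for CA, 420.5 for DG, 410.4 for FCT and 407.2 for CT. Kl, of the ependyma and choroid plexus list, was the other gene called there (0.61 ± 0.12, adjusted p = 4.69e-05, limma).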
